A study of Mus musculus with 2 samples.

Results

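Integrins are cell surface receptors built from an alpha and a beta chain, and laminins are basement membrane proteins built from an alpha, a beta and a gamma chain. The genes were taken by symbol from the mouse annotation, as protein-coding genes named Itga, Itgb or Lama, Lamb and Lamc with a chain number or letter. This gave 37 genes of 55401 in the tables, of which 18 encode integrin alpha chains, 8 integrin beta chains and 11 laminin chains. Near names such as Itgb1bp2, Itgbl1 and Itgb2l are not chains under this rule and were not counted among the 37.

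RNA was sequenced from mouse hearts (strain C57BL/6) following transverse aortic constriction (TAC), an operation in which the aortic arch is tied narrower so that the left ventricle pumps against a raised pressure. There was 1 library from mice labelled TAC and 1 library from mice labelled TAC with Dioscin, a plant steroidal saponin, called the dioscin library here. The protocol text names 4 weeks of dioscin after surgery, in the same words for both samples. Age, sex and the number of hearts in a library are not given in the labels, both groups carry the surgery, and hearts without surgery were not analysed here.

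In muscle and vessel walls, integrins tie the cell's actin skeleton to the matrix outside and pass force across the membrane in both directions. Laminin trimers join with collagen IV, nidogens and perlecan to form the sheet around each cardiomyocyte and under each endothelium. The beta chain Itgb1 pairs with most alpha chains, Itgb2 and Itgb7 belong to leukocytes, and Itgav is shared by several beta chains that bind RGD, a short peptide motif of fibronectin, vitronectin and latent TGF-beta.

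The sums of the integrin alpha chains and of the beta chains had ratios on opposite sides of 1, dioscin library over TAC library. Single chains of both classes lay on either side of 1. The summed scaled counts of the 18 alpha chains were 594 CPM in TAC and 425 CPM in dioscin, and those of the 8 beta chains were 275 and 413 CPM. CPM stands for the counts of a gene per 1000000 counts of the scaled library. The greatest differences among single genes were Itgax and Itgb6, which were lower in the dioscin library, and Itgb3, which was higher. Among the abundant laminin chains, Lama5, Lama4, Lamb1 and Lamb2 had ratios between 0.570 and 0.795. Lama2 had a ratio of 1.04 and Lamc1 of 1.33. After a correction for length and GC content, Lama5 moved from a log2 ratio of -0.81 to -0.26 and Lamb2 from -0.33 to 0.01.

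With 1 library in each group there is no spread between animals and no test of the treatment. Each ratio is the dioscin library over the TAC library and has an exact 95% Clopper-Pearson interval, which covers counting error only. Genes were called higher or lower by a size rule with 3 conditions: a level of 1 CPM or more in either library, a difference of 2-fold or more, and an interval that leaves out 1. By this rule, 4 of the 34 members that reached 1 CPM were higher (Itgb3, Lamb3, Itgb8 and Itgav) and 5 were lower (Itgax, Itgb6, Itgad, Lama3 and Itgb7). The same rule called 10.5% higher and 8.77% lower among all 15697 genes that reached 1 CPM, and 9.8% and 7.27% among the 13219 protein-coding ones. The members' shares, 11.8% higher and 14.7% lower, are counts of 4 and 5 genes beside that background. The median log2 ratio was -0.33 over the 34 members and 0.01 over all genes at or above 1 CPM.

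**Figure D1:**
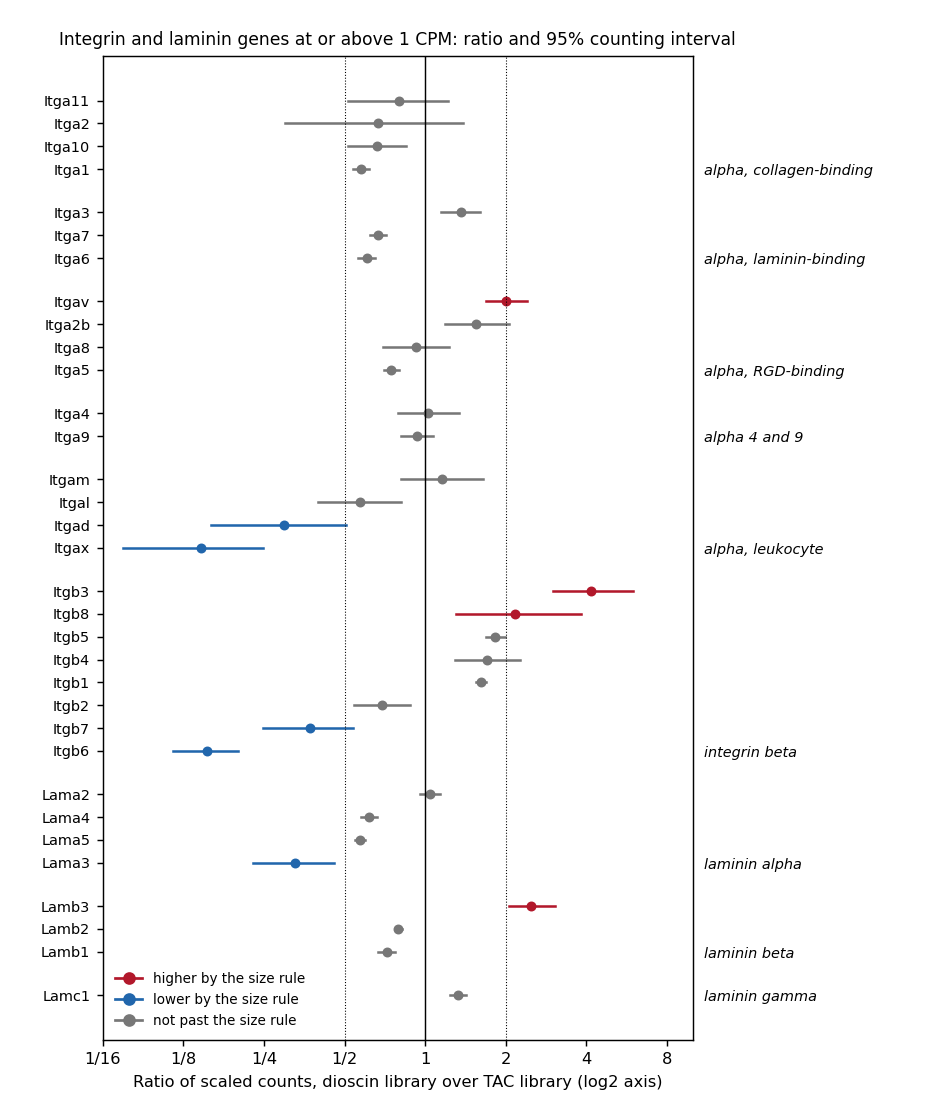
Ratio of scaled counts, dioscin library over TAC library, on a log2 axis for 33 members at or above 1 CPM, grouped by role, with 95% counting intervals as lines and dotted lines at ratios of 1/2 and 2. Itgax and Itgb6 lie farthest to the left and Itgb3 farthest to the right, and the collagen-binding alpha chains all lie to the left of 1.

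The libraries held 16782741 counts in genes for TAC and 17612259 for dioscin, of which the 37 members took 0.213% and 0.172%. Markers of several cell types differed between the libraries as a whole. Ventricular muscle markers summed to 49972 CPM in TAC and 52779 CPM in dioscin, so the heart label was met in both. The 6 atrial muscle markers summed to 592 and 17319 CPM, of which Nppa alone had 588 and 12663 CPM. Other atrial markers were near absent in TAC, with 1 and 12433 counts for Sln, 13 and 30109 for Myl7 and 55 and 33721 for Myl4. The 8 mesothelial markers summed to 18.5 and 153 CPM. Most of their TAC sum was Wt1, with 276 and 264 counts, a ratio of 0.965 and an interval that held 1. The 6 fat cell markers summed to 0.811 and 31.1 CPM. In the TAC library Mybphl and Bmp10 of the atrial list, Krt8 and Krt18 of the mesothelial list and Cidec, Plin1 and Retn of the fat list were at 0 counts. The 8 fibroblast markers summed to 1185 and 3393 CPM and the 9 endothelial markers to 1791 and 1801 CPM. In bulk tissue, fewer cells of a type and less RNA per cell cannot be told apart, and the part of any cell type in the values below was not tested unless a value is given.

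Promoter sequences from RefSeq are shown for 4 members past the size rule, as the start regions of genes that carry the differences described below. Promoter windows of 300 bases, from 250 before to 50 after the annotated start on GRCm38.p6, were found for 23 of the 37 members. They are Itgb6 on the minus strand at chr2:60722554-60722853, Itgax on the plus strand at chr7:128129300-128129599, Itgb7 on the minus strand at chr15:102231886-102232185 and Itgav on the plus strand at chr2:83724147-83724446. Capitals mark any match to GGAATG (the core of a TEAD motif), GAGGAAG (a PU box of the ETS family) or TGANTCA (the AP-1 motif), on either strand. The motifs do not contain each other.
Itgb6: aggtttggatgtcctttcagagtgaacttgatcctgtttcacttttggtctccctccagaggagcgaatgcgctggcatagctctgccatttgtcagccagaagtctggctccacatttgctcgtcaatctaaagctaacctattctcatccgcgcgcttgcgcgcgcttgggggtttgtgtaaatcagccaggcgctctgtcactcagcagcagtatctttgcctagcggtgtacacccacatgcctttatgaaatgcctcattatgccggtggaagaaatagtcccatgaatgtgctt
Itgax: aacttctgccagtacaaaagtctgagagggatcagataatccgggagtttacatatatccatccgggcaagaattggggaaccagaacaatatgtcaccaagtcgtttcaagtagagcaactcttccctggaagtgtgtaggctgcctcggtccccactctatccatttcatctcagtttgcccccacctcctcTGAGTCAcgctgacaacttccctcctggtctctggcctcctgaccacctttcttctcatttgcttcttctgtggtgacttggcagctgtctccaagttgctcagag
Itgb7: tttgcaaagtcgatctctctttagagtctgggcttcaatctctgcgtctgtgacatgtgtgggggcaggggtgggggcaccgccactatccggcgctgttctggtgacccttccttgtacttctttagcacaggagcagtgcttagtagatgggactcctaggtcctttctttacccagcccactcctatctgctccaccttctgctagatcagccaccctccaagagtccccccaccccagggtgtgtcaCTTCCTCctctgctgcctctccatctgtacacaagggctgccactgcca
Itgav: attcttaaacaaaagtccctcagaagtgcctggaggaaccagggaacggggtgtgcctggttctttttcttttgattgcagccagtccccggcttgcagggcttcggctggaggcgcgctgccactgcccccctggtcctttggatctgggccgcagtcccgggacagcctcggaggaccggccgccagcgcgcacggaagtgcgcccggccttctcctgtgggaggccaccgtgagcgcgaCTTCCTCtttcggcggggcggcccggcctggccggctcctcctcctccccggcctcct
The Itgax window holds an AP-1 match that starts 56 bases before the annotated start. The Itgb7 window holds a PU box match on the reverse strand, from position 2 after the start, and the Itgav window a reverse PU box match from 8 bases before it. The Itgb6 window, the nearer of 2 that RefSeq gives and 40 bases from the GENCODE start, holds no match. Over the 23 members, a PU box was present in 7 windows (30.4%), against 13.6% of 32851 mouse windows of that length. The median GC content was 59% in the member windows and 52.67% in all windows, and the shares are not adjusted for it. TEAD and AP-1 matches were present in 2 windows each (8.7%), against 14.7% and 7.81% of all windows. The AP-1 windows were those of Itgax and Itga9, and the Itga9 window lay 105002 bases from the GENCODE start. The 7 windows with a PU box belonged to Itga2b, Itgav, Itga11, Itgam, Itgb7, Lama2 and Lamb3, which differ in their ratios. Among them, the Lamb3 and Lama2 windows lay 94295 and 2816 bases from the GENCODE starts. A match is a description of letters only.

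Levels of different genes are compared as CPM per kb of annotated exon. In the TAC library, Lamb2 had the highest level at 83.4 CPM per kb, followed by Itgb1 at 42.9, Lama5 at 27.4, Itga5 at 25.9, Itga7 at 15.2, Itgb5 at 14.6 and Itga6 at 12.4. In the dioscin library, Itgb1 led at 69.3 CPM per kb, ahead of Lamb2 at 66.3, Itgb5 at 26.8, Itga5 at 19.4, Lama5 at 15.6, Lamc1 at 13.6 and Itga7 at 10.1. Levels in bulk tissue do not show which cells carry these chains. The first place went from Lamb2 to Itgb1, but after the correction for length and GC content described below Lamb2 led the dioscin library too, at 84.1 CPM per kb against 66.0 for Itgb1. When the longest transcript replaced the joined exons as the length, Lamb2 and then Itgb1 still led the TAC library, at 90.2 and 45.9 CPM per kb, followed by Itga7 at 30.5. At the other end, 16 of 37 members in TAC and 15 in dioscin were below 1 CPM per kb.

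**Figure D2:**
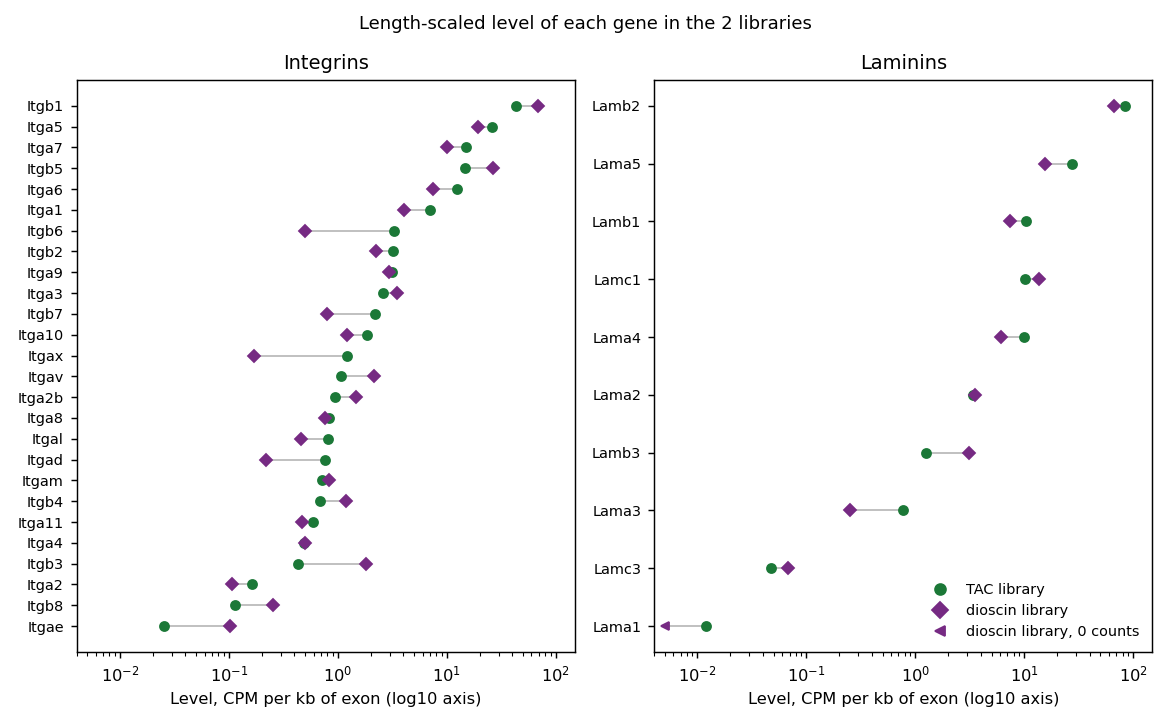
Level of 36 of the 37 genes in CPM per kb of exon on a log10 axis, with circles for the TAC library and diamonds for the dioscin library. The members span from 0.0120 CPM per kb for Lama1 to 83.4 for Lamb2 in the TAC library. Lama1 had 0 counts in the dioscin library, drawn as a triangle at the left edge.

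The common beta chain Itgb1 (ENSMUSG00000025809.15, on GRCm38 at chr8:128685654-128733200, plus strand) had 3024 counts in TAC and 4844 in dioscin, or 175 and 283 CPM. Its ratio was 1.62 (95% counting interval 1.54 to 1.69), above 1 but short of the size rule. Of the 12 alpha chains that pair with it, 2 had intervals above 1 (Itga3, Itgav), 5 had intervals below 1 (Itga1, Itga5, Itga6, Itga7 and Itga10) and 5 had intervals that held 1. Among all 15697 genes, 35.1% had intervals above 1 and 32.1% below, so an interval that leaves out 1 is common at this depth. Summed, the 12 partners had 571 CPM in TAC and 408 CPM in dioscin, a ratio of 0.715 (0.693 to 0.737). The shared beta chain and the sum of its partners thus lay on opposite sides of 1, also after the correction for length and GC content described below, where the sum had a ratio of 0.810.

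All 4 alpha chains that bind collagen had ratios below 1, and none passed the size rule. Itga1, a receptor for collagen IV on vessel and stromal cells, had 2250 and 1283 counts (130.3 and 75.0 CPM), a ratio of 0.575 (0.537 to 0.616). Itga10, known from cartilage, had 165 and 108 counts, a ratio of 0.661 (0.513 to 0.847). A same-strand gene model, Gm42957, at 0 counts in both libraries, shares 33.5% of the exonic length of Itga10. Reads there may have been given to neither gene, so the level of Itga10 may be understated. Itga11, the collagen receptor of fibroblasts, had 52 and 41 counts and a ratio of 0.797 (0.515 to 1.22). Itga2 had 20 and 13 counts, too few to tell its ratio of 0.664 from 1 (0.300 to 1.39). Itga1 and Itga2 are neighbours on chromosome 13, 21.0 kb apart.

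Among the 3 alpha chains that bind laminin, Itga6 and Itga7 had ratios below 1 and Itga3 above it. Itga7, the laminin receptor of striated muscle, had 2119 counts in TAC and 1396 in dioscin (123 and 81.6 CPM), a ratio of 0.665 (0.621 to 0.711). Itga6, found on endothelium and epithelium, had 1940 and 1163 counts (112 and 67.9 CPM), a ratio of 0.605 (0.562 to 0.651). Itga3 had 255 and 343 counts (14.8 and 20.04 CPM), a ratio of 1.36 (1.15 to 1.602). Markers of the cells that carry these chains went different ways, and their part in the values was not tested. Among 9 ventricular muscle markers, 6 had ratios above 1 and 3 below, with a median log2 ratio of 0.30. Only Mybpc3 of these passed the size rule, as lower (ratio 0.454). Among 9 endothelial markers, 5 had ratios above 1 and 4 below, with a median log2 ratio of 0.01. Vwf (ratio 3.27) and Pecam1 (2.19) were higher and Egfl7 (0.364) was lower.

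Of the 4 alpha chains that bind RGD, Itgav was higher by the size rule and Itga5 had a ratio below 1. Itgav (ENSMUSG00000027087.11, chr2:83724397-83806916, plus strand) had 198 counts in TAC and 395 in dioscin, or 11.5 and 23.1 CPM. It was 2.01-fold higher (1.69 to 2.40), just past the threshold, and it fell short of it with total-count scaling, with DESeq2 size factors, with a pseudocount of 5 and after the length and GC correction. Itga5, the main fibronectin receptor chain, had 2209 and 1634 counts (128 and 95.5 CPM), a ratio of 0.746 (0.700 to 0.796). Itga8, of mesenchymal cells, had 106 and 97 counts, and its interval held 1 (0.694 to 1.23). Itga2b, the fibrinogen receptor chain of platelets, had 88 and 136 counts and a ratio of 1.56 (1.18 to 2.06). The 6 platelet markers summed to 14.1 and 18.9 CPM, with Gp1bb at 0 counts in both libraries and Gp6 at 0 in the TAC library.

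The beta chains that pair with Itgav went both ways. Itgb3 (ENSMUSG00000020689.4, chr11:104608000-104670476, plus strand), which pairs with Itgav on vessel cells and with Itga2b on platelets, had 44 counts in TAC and 183 in dioscin, or 2.55 and 10.7 CPM. It was 4.16-fold higher (3.01 to 5.97), the highest ratio among the 34 members. Itgb8, known for activating latent TGF-beta, had 22 and 48 counts (1.27 and 2.80 CPM) and was 2.17-fold higher (1.30 to 3.83), a call that was lost with a pseudocount of 5. Itgb5, a vitronectin receptor chain, had 898 and 1630 counts (52.0 and 95.2 CPM), a ratio of 1.83 (1.69 to 1.99).

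Itgb6 (ENSMUSG00000026971.15, chr2:60598292-60722643, minus strand), the other chain known for activating latent TGF-beta, had 404 counts in TAC and 61 in dioscin, or 23.4 and 3.56 CPM. It was 6.52-fold lower (5.01 to 8.74), opposite to Itgav, Itgb3, Itgb5 and Itgb8. Its share of all beta chain counts was 8.50% (exact 95% interval 7.73 to 9.33) in the TAC library and 0.864% (0.661 to 1.11) in the dioscin library. Itgb6 is best known from epithelium, and the part of epithelial cells in its values was not tested. Of the 5 epithelial markers, Krt14 was higher, with 1 count in TAC and 44 in dioscin, while Cdh1 had 1 and 3 counts, Epcam 0 and 2, and Krt5 and Cldn4 0 in both. They summed to 0.116 CPM in TAC and 2.86 CPM in dioscin.

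Itgb4, which pairs with Itga6 in the anchoring junctions of epithelium and on some nerve sheath cells, had 84 and 142 counts (4.86 and 8.30 CPM), a ratio of 1.70 (1.29 to 2.26). It passed the size rule as higher after the correction for length and GC content, at a log2 ratio of 1.11. An opposite-strand transcript covers 7.66% of its exonic length, and reads of the strands cannot be told apart with this library kit. Its partner Itga6 lay on the other side of 1, as given above.

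Of the 5 alpha chains of leukocytes, Itgax and Itgad were lower, Itgal and Itgam did not pass the size rule and Itgae did not reach 1 CPM. Itgax (ENSMUSG00000030789.9, chr7:128129547-128150657, plus strand), known as CD11c of dendritic cells and some macrophages, had 100 counts in TAC and 14 in dioscin, or 5.79 and 0.818 CPM. It was 6.87-fold lower (4.03 to 13.4), the lowest ratio among the 34 members. Itgad, the neighbouring CD11d gene 3.72 kb away, had 59 and 17 counts (3.42 and 0.993 CPM) and was 3.37-fold lower (1.98 to 6.30). Opposite-strand genes cover 12.4% of the exonic length of Itgad, among them Cox6a2, a muscle gene with 18597 and 26278 counts, so part of the Itgad reads cannot be assigned with certainty.

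Itgb7 (ENSMUSG00000001281.10, chr15:102215995-102231944, minus strand), the partner of Itga4 and Itgae on lymphocytes, had 104 and 38 counts (6.02 and 2.22 CPM) and was 2.69-fold lower (1.85 to 4.04). Itgal, the LFA-1 chain of lymphocytes, had 92 and 52 counts, a ratio of 0.573 (0.398 to 0.810). The shared leukocyte chain Itgb2 had 171 and 117 counts (9.90 and 6.84 CPM), a ratio of 0.691 (0.541 to 0.878). These 3 chains have intervals below 1, and only Itgb7 among them passed the size rule.

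Itgam, the Mac-1 chain of macrophages and neutrophils, had 62 and 71 counts, and its interval held 1 (0.810 to 1.65). A gene model on the same strand, Gm49368, shares 68.7% of the exonic length of Itgam, so reads there may have been given to neither gene and the level of Itgam may be understated. Itga4, carried by leukocytes and other cells, had 118 and 120 counts (0.789 to 1.33), and Itga9, a tenascin and VCAM1 receptor chain, 420 and 388 counts (0.810 to 1.07). Itgae had 2 and 8 counts and did not reach 1 CPM in either library. The 4 Itgb2 partners together had 313 counts in TAC and 154 in dioscin, a ratio of 0.496 (0.407 to 0.604).

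Leukocyte markers differed in the same comparison, and their part in the values of these chains was not tested. The 6 B cell markers summed to 17.1 CPM in TAC and 3.86 CPM in dioscin, and the 5 of them that reached 1 CPM were lower by the size rule. Of 8 T and NK cell markers, 5 reached 1 CPM and 3 of these were lower, with sums of 15.9 and 7.83 CPM. Of 6 neutrophil markers, 3 reached 1 CPM and all 3 were lower, with sums of 19.6 and 5.67 CPM and Ly6g at 0 counts in both libraries. The 4 recruited monocyte markers summed to 20.9 and 10.2 CPM, and 1 of the 3 that reached 1 CPM was lower. Macrophage markers went the other way, with sums of 175 and 328 CPM, 2 of 8 higher (Lyve1 and Cd163) and 1 lower (Fcgr1).

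**Figure D3:**
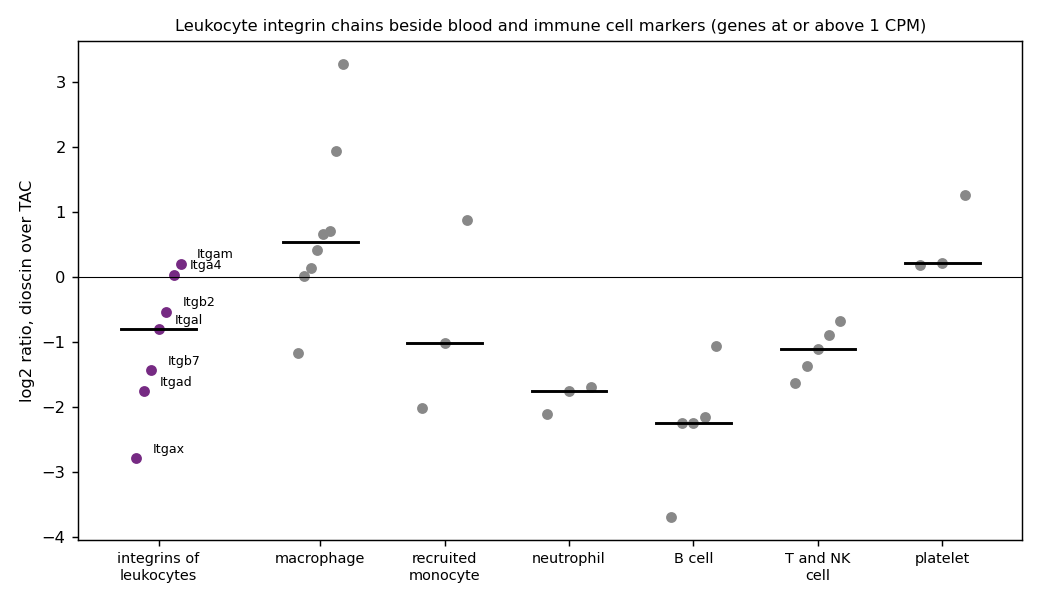
Log2 ratio, dioscin over TAC, of 7 integrin chains carried by leukocytes beside the markers of 6 blood and immune cell lists. Points are genes at or above 1 CPM and bars are medians of the drawn points. Itgax, Itgad and Itgb7 lie lowest among the integrins and Itgam and Itga4 near 0, while the drawn B cell, T and NK cell and neutrophil markers all lie below 0 and most macrophage markers above it.

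The laminin alpha chains summed to 495 CPM in TAC and 312 CPM in dioscin, a ratio of 0.630 (0.609 to 0.652), or 0.809 after the correction for length and GC content. Lama5 (ENSMUSG00000015647.9, chr2:180176373-180225859, minus strand), a chain of vessel and epithelial basement membranes, had 5396 and 3049 counts (312 and 178 CPM), a ratio of 0.570 (0.545 to 0.596). Lama4, the other endothelial chain, had 2049 and 1252 counts (119 and 73.1 CPM), a ratio of 0.617 (0.574 to 0.662). Lama2, the chain around muscle fibres whose loss causes a muscular dystrophy, had 961 and 994 counts, with an interval that held 1 (0.954 to 1.14). Before the correction, the muscle chain thus did not share the ratio of the vessel chains. After it, the log2 ratios were -0.26 for Lama5, -0.63 for Lama4 and 0.11 for Lama2, so the vessel chains also differed from each other.

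Lama3, an epithelial chain, had 143 counts in TAC and 46 in dioscin (8.28 and 2.69 CPM) and was 3.06-fold lower (2.20 to 4.39). Lama1, an embryonic chain, had 2 counts in TAC and 0 in dioscin, where 3 counts would be 0.175 CPM, so no difference was detectable at this depth. Lama3 is known to join Lamb3 in epithelial laminin, and Lamb3 lay on the other side of 1. Lamb3 (ENSMUSG00000026639.18, chr1:193207699-193343878, plus strand) had 142 and 352 counts (8.22 and 20.6 CPM) and was 2.50-fold higher (2.05 to 3.06).

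Lamb2 (ENSMUSG00000052911.9, chr9:108479736-108490530, plus strand), the main beta chain of heart and vessels, had 8764 and 6907 counts (508 and 404 CPM). Its ratio of 0.795 (0.770 to 0.821) is a log2 ratio of -0.33, which turned to 0.01 after the correction for length and GC content. Lamb1 had 1765 and 1255 counts (102 and 73.3 CPM), a ratio of 0.717 (0.667 to 0.772). Lamc1, the gamma chain of most laminins, had 1462 and 1925 counts (84.7 and 112 CPM), a ratio of 1.33 (1.24 to 1.42). Lamc3 had 5 and 7 counts and did not reach 1 CPM.

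The length-scaled sum of the laminin alpha chains was 41.5 CPM per kb in TAC and 25.5 in dioscin, and that of the beta chains was 94.99 and 76.9. The beta chains stood above the alpha chains in both libraries, and the ratio of their summed CPM, 0.805 (0.782 to 0.828), was 0.992 after the correction for length and GC content.

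Within the classes, Lama5 took 63.1% (62.1 to 64.1) of the alpha chain counts in the TAC library and 57.1% (55.7 to 58.4) in the dioscin library. Lama2 took 11.2% (10.6 to 11.9) and 18.6% (17.6 to 19.7), and Lama4 24.0% (23.1 to 24.9) and 23.4% (22.3 to 24.6). After the correction for length and GC content described below, the dioscin shares were 65.2% for Lama5, 15.0% for Lama2 and 19.2% for Lama4, so the Lama5 share was then above its TAC value and the Lama4 share below it, whereas the Lama2 share stayed above. Lamb3 took 1.33% (1.12 to 1.57) and 4.13% (3.72 to 4.58) of the beta chain counts, whereas Lamb2 took 82.1% (81.4 to 82.9) and 81.1% (80.3 to 82.0). Library scaling does not enter these shares.

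**Figure D4:**
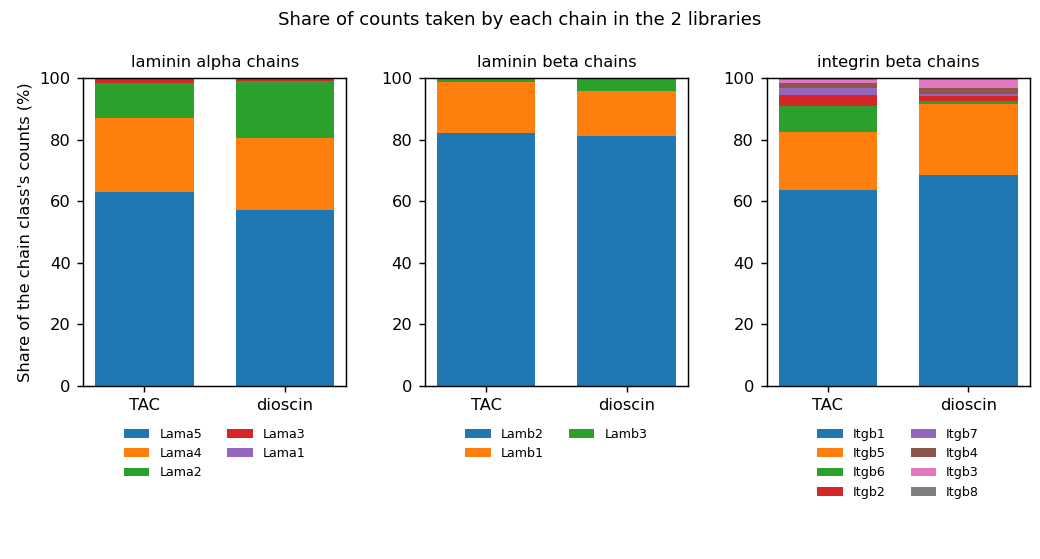
Share of counts, in percent, that each chain took within its class in the TAC and dioscin libraries, for laminin alpha and beta chains and integrin beta chains. The Lama2 share is wider in the dioscin bar (18.6% against 11.2%, and 15.0% after the length and GC correction, which is not drawn), and the Itgb6 share is narrower (0.864% against 8.50%).

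The ratios were also set beside the length and GC content of the genes. The 34 members had a median exonic length of 7063 bases and a median GC content of 52.6%, against 4518 bases and 49.8% for protein-coding genes at or above 1 CPM. Among protein-coding genes with at least 4000 bases of exon, the median log2 ratio was 0.05 for 2393 genes under 45% GC and -0.28 for 1245 genes at 55% GC or more. Members of any length in those GC ranges had medians of -0.04 (8 genes) and -0.33 (11 genes). Between them, the long genes had medians of -0.01 at 45 to 50% GC and -0.08 at 50 to 55% GC. The members there had medians of 0.06 (3 genes) and -0.56 (12 genes). Over the 34 members, the Spearman rank correlation of the log2 ratio was 0.002 with length and -0.01 with GC content. Over 13219 protein-coding genes it was -0.12 and -0.09. After subtraction of the median of genes alike in length and GC content, the median of the members was -0.14 instead of -0.33. Lama5 went from -0.81 to -0.26 on the log2 scale, Itga7 from -0.59 to -0.17 and Itga5 from -0.42 to -0.20. Itga1 (-0.82), Lama4 (-0.63), Itga6 (-0.60) and Itgb1 (0.62) kept most of their log2 ratio, and Itgb6, Itgax and Itgb3 stood at -2.74, -2.73 and 2.18.

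The median log2 ratio of the 17 alpha chains that reached 1 CPM was -0.42, and -0.20 after that correction, while the median of the 8 beta chains was 0.73 and 0.80. The 9 laminins at or above 1 CPM had a median of -0.33, which turned to 0.01 after the correction. Of the 17 alpha chains, 12 had ratios below 1, and 13 did with total-count scaling or after the correction. Of the 8 beta chains, 5 had ratios above 1 under each of the scalings and after the correction.

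**Figure D5:**
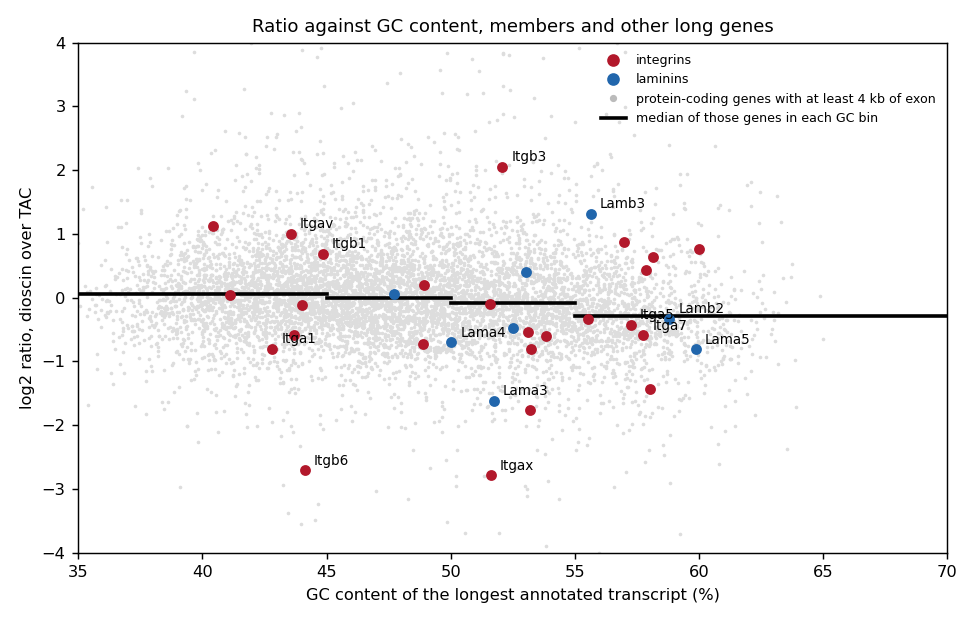
Log2 ratio, dioscin over TAC, against GC content of the longest annotated transcript, with integrins in red, laminins in blue, protein-coding genes with at least 4000 bases of exon in grey and their median in each GC bin as black lines (genes outside the axes are not drawn). The black line lies at 0.05 in the lowest GC bin and at -0.28 in the highest. In the highest bin, Lama5, Lamb2, Itga5, Itga7, Itga11 and Itgb7 lie below 0. Itga2b, Itga3, Itgb4, Itgb5 and Lamb3 lie above 0 in the same bin.

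Cytoplasmic partners of integrins are set beside all genes at or above 1 CPM. The size rule called 10.5% of all these genes higher and 8.77% lower. Of 19 activators and adaptors at or above 1 CPM, 1 was higher and none lower, with a median log2 ratio of 0.10 beside 0.01 for all genes. The higher gene was Parvg, the parvin of blood cells, with 37 and 85 counts (2.30-fold, 1.56 to 3.51). Itgb1bp2, the muscle protein melusin that binds the Itgb1 tail, had 254 and 275 CPM, a ratio of 1.08 (1.04 to 1.13). Ilk, the integrin-linked kinase, had 148 and 98.6 CPM, a ratio of 0.665 (0.625 to 0.708), and its binding partner Lims2 157 and 139 CPM, a ratio of 0.889 (0.841 to 0.940).

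Of 16 focal adhesion signalling genes, 1 was higher and 1 lower, with a median of -0.15. These are 6.25% each, beside 10.5% and 8.77% of all genes at or above 1 CPM. Pxn, the scaffold paxillin, had 5644 and 2575 counts (327 and 150 CPM) and was 2.17-fold lower (2.07 to 2.28). Ptk2b, the kinase PYK2, had 116 and 238 counts and was 2.07-fold higher (1.65 to 2.61), whereas its relative Ptk2, the focal adhesion kinase, had a ratio of 0.629. Of 14 actin linkers, Actn2, the sarcomeric alpha-actinin, was 2.02-fold higher (1.98 to 2.06), and the others did not pass the size rule, with a median of 0.18 for the list.

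Among the partners of laminins in the basement membrane, 4 of 20 measured genes passed as higher and 3 as lower. These are 20% and 15%, beside 10.5% and 8.77% of all genes at or above 1 CPM. The median log2 ratio of the list was -0.12. Fras1, an anchor of embryonic basement membranes, had 5 and 77 counts and was 14.2-fold higher (6.38 to 49.2). The netrins Ntn4, which binds laminin gamma chains, and Ntn1, a guidance protein, were 4.08-fold (3.34 to 5.06) and 3.16-fold (2.78 to 3.61) higher. Col15a1, a collagen of muscle and vessel basement membranes, had 1578 and 506 counts and was 3.09-fold lower (2.79 to 3.42). The collagen IV chains Col4a1 and Col4a2 had ratios of 0.764 (0.739 to 0.789) and 0.640 (0.617 to 0.663), and Col4a4 0.869 (0.761 to 0.992). Col4a3 and Col4a5 had intervals that held 1, with ratios of 0.978 and 1.03, and Col4a6, with 23 and 92 counts, was 3.97-fold higher (2.53 to 6.68). The collagen IV chains thus went different ways, as the laminin chains did.

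Of 8 other laminin receptors, Sdc1, a syndecan, was 2.64-fold higher (1.95 to 3.64) and Mcam, a receptor for Lama4-containing laminin on vessels, 2.01-fold lower (1.85 to 2.18), with a median log2 ratio of 0.61. Among 20 other integrin ligands that reached 1 CPM there were 4 higher and 1 lower, and the median was -0.05. The shares called higher and lower were 12.5% and 12.5% for these receptors and 20% and 5% for these ligands. Among all genes at or above 1 CPM they were 10.5% and 8.77%. Ccn2, a matrix protein that binds integrins and growth factors, had 1014 and 12232 counts and was 12.2-fold higher (11.4 to 13.0). Fn1, fibronectin, the ligand of Itga5, had 742 and 1687 counts and was 2.29-fold higher (2.103 to 2.50), while Itga5 had a ratio of 0.746. Fbln5, an elastic fibre protein with an RGD site, was 2.49-fold higher (2.15 to 2.89), and Vcam1, the endothelial ligand of Itga4, 3.45-fold (3.02 to 3.96). Vtn, vitronectin, the ligand of Itgav with Itgb3 or Itgb5, had 736 and 308 counts and was 2.37-fold lower (2.07 to 2.71), whereas these 3 chains had ratios above 1. The mesothelial, atrial, fat and fibroblast marker sums were higher in the same library, and their part in these ligands was not tested.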

How the data were processed

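Frozen hearts were extracted with Trizol and sequenced with the Illumina TruSeq RNA kit, per the labels' protocols. Each deposited table holds raw read counts by gene. The submitters' processing notes name HISAT2 2.1.0, HTSeq and mm10, without their roles. Annotation release, strand setting and HTSeq version are not given in the sources used here. Both tables end with 5 HTSeq lines that name no gene and stayed out of library sizes. As a share of all reads listed in TAC and in dioscin, these were 30.0% and 30.0% outside genes, 38.2% and 36.5% aligned more than once, 1.49% and 1.39% ambiguous, 1.48% and 1.48% of low quality, and 2.59% and 2.17% unaligned.

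Names, biotypes, exons and coordinates came from GENCODE M21 on GRCm38, and 55141 of 55401 identifiers matched without the version number. Groups were taken from the treatment label. Scaling used TMM factors over all genes (edgeR 4.0.16, R 4.3.3), and log2 ratios used a pseudocount of 0.5. Intervals (SciPy 1.17.1) cover counting error only, since each group has 1 library. PCR copies were not told apart, and copies among the reads would make the intervals too narrow. The floor of 3 counts was 0.174 and 0.175 CPM. Alternatives were total-count scaling, DESeq2 1.42.0 size factors, TMM without mitochondrial genes, no filter, 5 CPM, a pseudocount of 5, a fold of 1.5 and subtraction of the median log2 ratio in 10 by 10 bins of exonic length and GC content. Applying the last of these to shares, sums and levels was chosen after seeing the data. The scripts for ratios and calls were tested on simulated data.

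All members were described except 1, which is not reported here by name and enters only the counts, medians and sums over members. Of each other list, up to 4 members past the size rule with the farthest interval bound and up to 3 of the most abundant per length could be named. Ptk2, Vtn and the overlapping genes were added after their values were seen, as were the markers named because they were at 0. Col4a3, Col4a4, Col4a5 and Col4a6 were also named outside this naming rule. The members, lists and the size rule were chosen with earlier results of these data known.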

Additional observations from a re-analysis of the deposited data

How the results depend on the processing

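With a pseudocount of 5, 2 members were higher instead of 4, without Itgav and Itgb8. With a fold of 1.5, 9 were higher and 12 lower, since the threshold is looser, and 20.3% and 17.9% of all genes were then higher and lower. After the correction for length and GC content the median log2 ratio of the members was -0.14, the counts stayed at 4 and 5, and Itgb4 replaced Itgav among the higher ones. The other settings gave 3 or 4 higher and 4 or 5 lower members, and with a minimum of 5 CPM Itgb8 and Itgad dropped out. Total-count scaling shifted the median of all genes from 0.01 to -0.07. For single members, 3 of 34 log2 ratios left their counting interval with total-count scaling and 7 after the correction, among them Itga3 at 0.71. No called member changed sign under the scalings, the pseudocount or the correction. No paired analysis was possible because each group has 1 library, and no replicate could be left out. Counts under about 100, as for Itgax, Itgad, Itgb8 and Itgb3, give wide intervals.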
